A study of Mus musculus with 27 samples.

Results

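The naive and core pluripotency genes are here a list of 34 transcripts of mouse embryonic stem (ES) cells. The list holds core and naive factors, ES cell markers, signalling and chromatin genes and a repressor of naive genes. They were chosen by symbol from knowledge of ES cells, with earlier results of these data known. Each was read from the brightest of its probesets that passed a minimum mean of 6 (log2). All 34 had such a probeset, among 13989 genes measured in the same way. RNA from ES cells treated with small interfering RNA (siRNA) was hybridised to 27 Affymetrix mouse gene arrays, and a knockdown array was always set against the control array of its own experiment.

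PGK12.1 is a female ES line with a mother of strain 129, whose father was (129 X PGK)F1, WD44 is a male line from BL6 embryos, and E14 is here a male Cast/BL6 hybrid line. All cells were kept with 1000 U/ml of leukemia inhibitory factor (LIF) on mouse embryonic fibroblast (MEF) feeders, which were depleted on gelatin before RNAi. MOF (gene Kat8), the acetyltransferase of histone H4 lysine 16, was targeted in 3 PGK12.1 experiments (1, 2 and 3), 2 of WD44 and 2 of E14. In PGK12.1, MSL1, a scaffold of the MOF-containing MSL complex, was targeted in experiments A, B and C, the target labelled NSL1 in C, D and E, and MOF and MSL1 together in D and E. The control arrays received a negative control siRNA and numbered 8 for PGK12.1 and 2 for each male line. Cells received 100 pmol of siRNA for 48 h, with 50 pmol of Msl1 siRNA added in the double knockdown. Experiments 1 and 2 of PGK12.1 were transfected again, with 400 pmol for 24 h. Each line is a single ES line, so what differs between lines could be strain, sex or line history. The MOF comparisons of the lines also differ in the second transfection of PGK12.1 and in how far Kat8 fell (below). The labels describe separate treatments of a line, and p-values therefore measure the spread between treatments. That spread is pooled over the lines, so the p-values of WD44 and E14 lean on the PGK12.1 arrays.

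In the ES cell, the transcription factors OCT4 (gene Pou5f1), SOX2 and NANOG bind each other's genes and hold the pluripotent state. LIF acts through its receptor and gp130 (gene Il6st) on STAT3, which sustains naive factors such as KLF4 and TFCP2L1, while TCF7L1 represses many of the same genes unless Wnt signalling relieves it. Cells that leave the naive state lose genes such as Zfp42, Prdm14, Tbx3 and Klf2 before they lose Pou5f1.

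Both targeted transcripts were lower, as read by limma with Benjamini-Hochberg adjustment over all probesets tested. After MOF siRNA the log2 difference of Kat8 in PGK12.1 was -1.22 (SE 0.06, adjusted p = 5.75e-08), that in WD44 -0.84 and that in E14 -0.67, and in the double knockdown it was -0.87. For Msl1 it was -0.97 with MSL1 siRNA (SE 0.07, adjusted p = 4.59e-06) and -0.46 in the double knockdown. The label NSL1 did not settle its target. The 2 probesets of Kansl1, a subunit of the NSL complex, gave -0.24 (mean 10.03, adjusted p = 0.000874) and 0.50 (mean 8.63, adjusted p = 0.00648). The dimmer one also rose after MOF siRNA in PGK12.1 (0.50) and WD44 (0.75), where the brighter one gave 0.22 and 0.12. The kinetochore gene Nsl1 gave 0.16 (adjusted p = 0.0502), so NSL1 below stands for the label alone. Array medians lay between 6.22 and 7.96, with those of WD44 the highest. ES identity was measured on every array, with Pou5f1 between 11.97 and 12.96 and Nanog between 12.09 and 13.01 on the deposited log2 scale.

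Transcripts of the 34 genes moved little, as did those of most genes tested. No member reached a 1.5-fold difference in any of the 6 comparisons. Of all genes, 0.701% had both that size and a limma adjusted p under 0.05 after MOF siRNA in PGK12.1. The share was 0.00715% after MSL1, 4.3% after NSL1, 0.236% in the double knockdown, 0.322% in WD44 and 0.207% in E14. With shares this low, none among 34 members is near the background. Among members, the largest difference was 0.53 on the log2 scale, for Lin28a in the double knockdown. Of 204 pairs of member and comparison, 28 passed an adjusted p of 0.05 (below, a gene that passed is called). These involved 20 members, and 6 members were called in more than 1 comparison. The 14 members called in none were Pou5f1, Sall4, Esrrb, Klf4, Klf5, Tfcp2l1, Zfp42, Prdm14, Nr5a2, Dppa2, Dppa5a, Fgf4, Gdf3 and Tet1. The median difference over the 34 members lay between -0.03 (E14) and 0.01 (double knockdown), beside -0.02 to 0.00 over all genes.

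**Figure D1:**
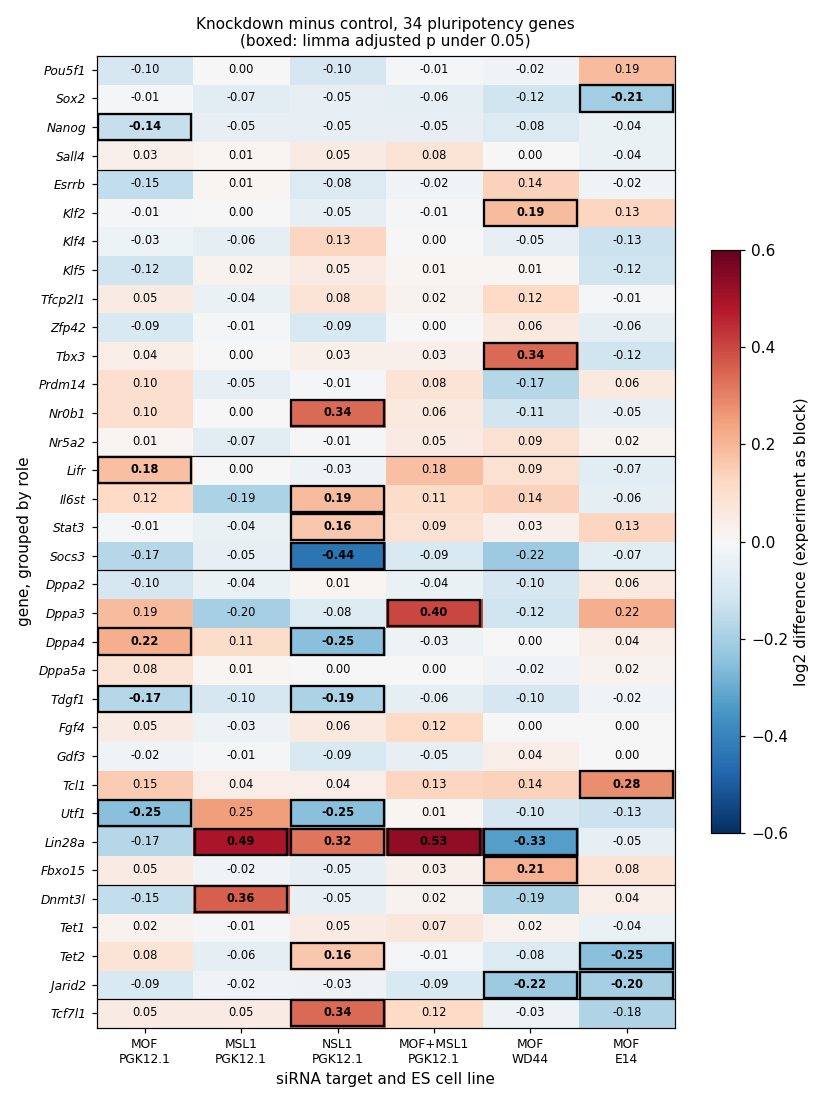
Fitted log2 difference (colour and printed value) between knockdown and control for each of the 34 genes (rows, grouped by role from core factors at the top to the Wnt repressor Tcf7l1 at the bottom) in the 6 comparisons (columns). Boxes mark the 28 differences called by limma; the row of Lin28a holds 4 of them, from -0.33 in WD44 to 0.53 in the double knockdown, and the row of Pou5f1 holds none.

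The share of members called is set here beside that of all genes. After MOF knockdown in PGK12.1, 5 of 34 members (14.7%) were called, beside 24.5% of all genes (9.84% higher and 14.6% lower). After NSL1 it was 10 members (29.4%), 6 higher and 4 lower, beside 41.2% (18.8% higher and 22.4% lower). In the double knockdown 2 members rose (5.88%), beside 6.93% of all genes (3.51% higher and 3.42% lower). In WD44 it was 5 members (14.7%) beside 12.7% (4.45% higher and 8.28% lower), and in E14 4 members (11.8%) beside 8.7% (3.77% higher and 4.93% lower). After MSL1 2 members rose (5.88%), beside 0.214% of all genes (0.114% higher and 0.1% lower). These 2 were Lin28a and Dnmt3l. The difference between members and all genes was not tested, since genes are not independent replicates. In size, the median absolute difference was 0.09 over the members and 0.10 over all genes for MOF in PGK12.1, and 0.07 and 0.13 for NSL1.

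**Figure D2:**
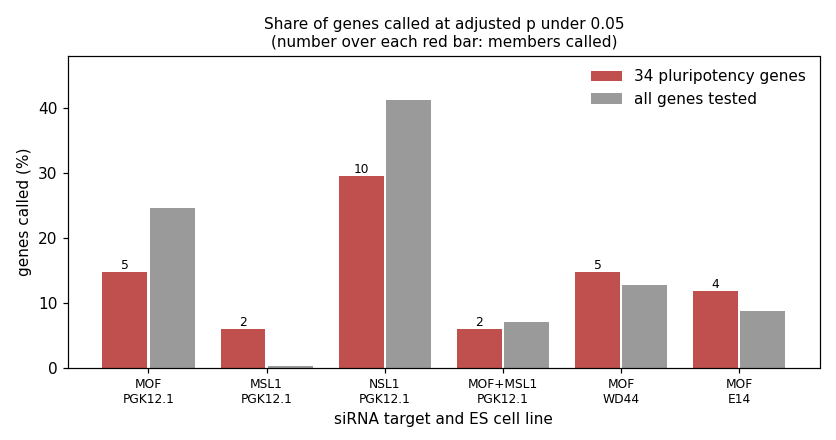
Percentage of the 34 pluripotency genes (red, with the number of members above the bar) and of all 13989 genes tested (grey) called at a limma adjusted p under 0.05, by siRNA target and line. The red bar is the lower one for MOF (14.7% against 24.5%) and NSL1 (29.4% against 41.2%) in PGK12.1, and the higher one for MSL1 (5.88% against 0.214%).

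Windows before the transcription start are shown for 5 members: Utf1 and Tdgf1, which were lower after both MOF and NSL1 siRNA, and Socs3, Tcf7l1 and Nr0b1, whose NSL1 differences were called under every setting tried. They are the 250 bases before the start in RefSeq (GRCm38.p6), 5′ to 3′ on the strand of the gene, and capitals mark the GC box GGGCGG and the TATA box TATAAA on either strand.

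Utf1: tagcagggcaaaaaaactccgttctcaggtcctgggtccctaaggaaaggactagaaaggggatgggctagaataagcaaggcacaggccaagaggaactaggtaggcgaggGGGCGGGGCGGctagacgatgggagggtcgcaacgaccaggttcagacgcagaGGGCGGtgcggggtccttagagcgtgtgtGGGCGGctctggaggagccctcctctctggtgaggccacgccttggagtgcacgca
Tdgf1: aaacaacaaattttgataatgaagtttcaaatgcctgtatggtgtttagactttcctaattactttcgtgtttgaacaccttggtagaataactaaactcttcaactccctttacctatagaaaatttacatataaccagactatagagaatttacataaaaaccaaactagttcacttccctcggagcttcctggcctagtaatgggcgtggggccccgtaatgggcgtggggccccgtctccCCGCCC
Socs3: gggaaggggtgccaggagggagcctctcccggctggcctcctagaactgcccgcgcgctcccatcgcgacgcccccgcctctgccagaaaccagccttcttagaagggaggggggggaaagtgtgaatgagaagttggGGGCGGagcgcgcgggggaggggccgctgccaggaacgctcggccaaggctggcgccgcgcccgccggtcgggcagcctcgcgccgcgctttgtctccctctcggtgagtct
Tcf7l1: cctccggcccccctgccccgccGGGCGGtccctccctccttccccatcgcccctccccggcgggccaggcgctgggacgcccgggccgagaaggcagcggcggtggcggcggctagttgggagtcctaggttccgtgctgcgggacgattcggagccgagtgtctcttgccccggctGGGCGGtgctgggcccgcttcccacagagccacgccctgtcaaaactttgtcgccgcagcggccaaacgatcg
Nr0b1: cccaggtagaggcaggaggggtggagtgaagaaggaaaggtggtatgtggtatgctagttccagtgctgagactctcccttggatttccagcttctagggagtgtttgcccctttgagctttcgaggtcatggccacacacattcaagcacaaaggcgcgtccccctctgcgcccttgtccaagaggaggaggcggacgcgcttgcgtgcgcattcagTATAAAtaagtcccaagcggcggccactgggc

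They lie at chr7:139943606-139943855 (plus strand, Utf1), chr9:110946159-110946408 (minus strand, Tdgf1), chr11:117969367-117969616 (minus strand, Socs3), chr6:72789046-72789295 (minus strand, Tcf7l1) and chrX:86191525-86191774 (plus strand, Nr0b1). The Utf1 window held 4 GC boxes, of which 2 overlap by 1 base, and was 61.6% G and C. The Tdgf1 window held 1 GC box, which ends at the last base before the start, and was 42% G and C. Socs3 held 1 GC box, Tcf7l1 held 2 and Nr0b1 none, and Nr0b1 was the one of the 5 with a TATA box, 32 bases before its start. Of the 34 members, 24 had an entry in the table, with 32 start windows. A GC box was in 59.4% of those windows and in 32.7% of 32841 windows of all genes, whose median G and C content was 61.6% and 52.4%. The octamer ATGCAAAT was in 3.12% of member windows beside 1.6% of all, the SOX motif ACAATG in 15.6% beside 10.7%, the ESRRB motif AAGGTCA in 3.12% beside 4.08% and the CACCC box in 53.1% beside 52%. No member window held the STAT motif TTCCNGGAA (0.913% of all windows). TATAAA was in 12.5% of member windows and 12.4% of all. Matches were sought on both strands, and a match shows only that the letters are there.

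Among the 4 core factors, a fall of Nanog after MOF siRNA in PGK12.1 and a fall of Sox2 after MOF siRNA in E14 were called. Of all genes, 24.5% were called in the first comparison and 8.7% in the second. Nanog read 12.22, 12.27 and 12.88 on control arrays 1, 2 and 3 and 12.09 and 12.77 on MOF arrays 2 and 3, and MOF array 1 stood just above array 2. Each MOF array was below its own control, by 0.11 to 0.18, while the groups overlapped because experiment 3 lay higher as a whole. The fitted difference was -0.14 (95% interval -0.23 to -0.04, adjusted p = 0.0427), a fold of 0.91, and it was no longer called without any 1 of the 3 MOF arrays. In the other comparisons Nanog lay between -0.08 (WD44) and -0.04 (E14), and none of these was called.

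Sox2 read 12.21 and 12.07 on the E14 control arrays and 11.93 on both MOF arrays, so the groups did not overlap. It fell by 0.21 there (SE 0.06, adjusted p = 0.0406), was lower in 2 of 2 experiments, and was no longer called without either MOF array or under median centring. In PGK12.1 after MOF siRNA it stood at -0.01, from 11.64, 11.68 and 12.55 on the control arrays to 11.66, 11.64 and 12.55 on the MOF arrays. In WD44 it read 12.68 and 12.57 on the controls and 12.55 and 12.46 with MOF siRNA (-0.12, adjusted p = 0.188). The difference between the PGK12.1 and the E14 response was 0.20 (adjusted p = 0.17).

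Pou5f1, which encodes OCT4, was called in no comparison. After MOF siRNA it read 11.97, 11.98 and 12.56 in PGK12.1 against 12.05, 12.08 and 12.69 on the controls, lower in 3 of 3 experiments by 0.08 to 0.13 (fitted -0.10, adjusted p = 0.152). In E14 it read 12.43 and 12.48 against 12.22 and 12.31, higher in 2 of 2 (0.19, adjusted p = 0.0682). The 2 lines thus had values of opposite sign. The difference between them was -0.29 (95% interval -0.46 to -0.13, adjusted p = 0.0632), which missed the threshold, and it was called after quantile normalization of all arrays. In WD44 the experiments went apart, from 12.96 to 12.82 and from 12.80 to 12.90. Sall4, a zinc-finger factor that works with OCT4, lay between -0.04 and 0.08 in the 6 comparisons.

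The 10 naive transcription factors held 3 calls over the 6 comparisons, all higher. They were 2 in WD44, where 12.7% of all genes were called, and 1 after NSL1 siRNA, where 41.2% were. Tbx3, a T-box factor downstream of LIF, read 9.83 and 9.66 on the WD44 control arrays and 10.24 and 9.94 on the MOF arrays, which did not overlap. It rose by 0.34 (SE 0.06, adjusted p = 0.00343), and the call was lost without MOF array 1, where Tbx3 had risen by 0.41. Klf2, a Krüppel-like factor of the naive state, rose by 0.19 in the same cells (SE 0.06, adjusted p = 0.0428), from 10.08 and 9.88 to 10.20 and 10.15. That call was lost without either MOF array, with median centring, without the filter on low values and with array weights.

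The Tbx3 response differed between lines. The lines also differed in how far Kat8 fell and, for PGK12.1 experiments 1 and 2, in a second transfection. The part of either in this response was not tested. The MOF difference was 0.04 in PGK12.1, where Tbx3 went from 10.09, 9.96 and 10.39 to 10.09, 10.12 and 10.35, and -0.12 in E14, where it went from 11.17 and 11.14 to 11.06 and 11.00. A test of the difference called 1 member for PGK12.1 against WD44 (2.24% of all genes), 1 for WD44 against E14 (1.47%) and 1 for PGK12.1 against E14 (2.58%), Tbx3 in the first and second of these. The PGK12.1 value was lower than that of WD44 by 0.30 (adjusted p = 0.0497) and WD44 was higher than E14 by 0.47 (SE 0.08, adjusted p = 0.016). The first of these was at the threshold and was lost without WD44 MOF array 1 or 2, without PGK12.1 MOF array 1 or 3 and under 5 other settings. The second was lost without WD44 MOF array 1 or without either E14 MOF array.

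Nr0b1 (DAX1), an X-linked orphan nuclear receptor that binds OCT4 and is a STAT3 target, was the naive factor called after NSL1 siRNA. It read 11.77, 11.70 and 11.68 on control arrays C, D and E and 12.06 and 12.02 on NSL1 arrays C and E, and NSL1 array D stood 0.40 above its control. The lowest NSL1 array stood above the highest control. It rose by 0.34 (95% interval 0.25 to 0.44, adjusted p = 1.86e-05) and was called under all 16 alternative settings. The rise exceeded that in the double knockdown by 0.29 (adjusted p = 0.00112) and that after MSL1 siRNA by 0.35 (adjusted p = 0.000256), and NSL1 shares controls D and E with the double knockdown and control C with MSL1.

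Esrrb and Klf4 were called in no comparison. Esrrb, an orphan nuclear receptor, went from 10.79, 10.77 and 11.69 to 10.64, 10.67 and 11.50 after MOF siRNA in PGK12.1, lower in 3 of 3 experiments (-0.15, adjusted p = 0.0732). In WD44 it went from 11.74 to 11.71 in one experiment and from 11.44 to 11.75 in the other, and in E14 from 11.50 and 11.53 to 11.47 and 11.51. After NSL1 siRNA it stood at 11.74, 11.62 and 11.52 beside 11.77, 11.69 and 11.68 on the controls (-0.08, adjusted p = 0.28). Klf4 was higher on all 3 NSL1 arrays, 10.95, 10.67 and 10.74 beside 10.78, 10.60 and 10.59 (0.13, adjusted p = 0.101), with overlapping groups. After MOF siRNA Klf4 went from 10.18, 10.06 and 10.35 to 10.15, 10.16 and 10.19 in PGK12.1. Its WD44 arrays went from 10.33 and 10.16 to 10.24 and 10.15, and its E14 arrays from 10.11 and 10.02 to 9.92 and 9.94. Its fitted values there were -0.03, -0.05 and -0.13. Over the naive factors, the fitted values after MOF siRNA ranged from -0.15 to 0.10 in PGK12.1 and from -0.07 to 0.02 after MSL1 siRNA.

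The LIF and STAT3 branch, with 4 members, held 4 of the 28 calls. Of these, 3 came after NSL1 siRNA, where 41.2% of all genes were called. The other came after MOF siRNA in PGK12.1, where 24.5% were. Socs3, the feedback inhibitor that STAT3 induces, read 9.59, 9.22 and 9.39 on controls C, D and E and 9.18, 8.74 and 8.88 on the NSL1 arrays. All NSL1 arrays lay below all of these controls. It fell by 0.44 (95% interval -0.57 to -0.30, adjusted p = 6.72e-05), to a fold of 0.739, which was the largest fall of any member in any comparison. The call held under all 16 alternatives. A second Socs3 probeset, with a mean of 7.05 beside 9.18, stood at -0.08 (adjusted p = 0.407). Socs3 was lower after NSL1 than in the double knockdown by 0.35 (adjusted p = 0.00448), which was lost without double-knockdown array D, and than after MSL1 by 0.39 (adjusted p = 0.00189).

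Upstream of Socs3, the signal transducer Il6st and the factor Stat3 were higher in the same arrays. Il6st went from 10.74, 10.49 and 10.47 to 10.88, 10.69 and 10.71 (0.19, adjusted p = 0.00685), higher in 3 of 3 experiments with overlapping groups. Stat3 went from 10.66, 10.41 and 10.57 to 10.73, 10.66 and 10.73 (0.16, adjusted p = 0.0138). The Stat3 call was lost without NSL1 array D or E or without control D. Lifr, the LIF receptor, stood at -0.03 after NSL1 siRNA but rose by 0.18 after MOF siRNA in PGK12.1 (SE 0.05, adjusted p = 0.0146). It went there from 9.18, 9.25 and 9.28 to 9.36, 9.45 and 9.44, with no overlap, and the call was lost without MOF array 2 and under median centring.

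Of 17 measured other genes of the LIF pathway, 4 rose and 3 fell after NSL1 siRNA, beside 18.8% and 22.4% of all genes, so the count is near the background. Lif itself rose by 0.49 (adjusted p = 6.5e-05), the inhibitor Pias3 rose by 0.39, and the kinases Tyk2 and Jak1 fell by 0.55 and 0.34. Lif also rose after MOF siRNA in PGK12.1 (0.66, adjusted p = 3.95e-05), in the double knockdown (0.43, adjusted p = 0.00963) and in E14 (0.39, adjusted p = 0.0193). The list median was 0.04 after NSL1 siRNA, beside -0.01 over all genes.

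Tcf7l1, the Wnt-relieved repressor of naive genes, rose after NSL1 siRNA. It read 10.63, 10.53 and 10.52 on the controls and 10.94, 10.79 and 11.00 on the NSL1 arrays, with no overlap. The rise was 0.34 (SE 0.06, adjusted p = 0.000313) and was called under all 16 alternatives. It exceeded the value in the double knockdown by 0.22 (adjusted p = 0.0321), which was lost without NSL1 array D or E or double-knockdown array D. Of 17 other Wnt pathway genes measured, 10 rose and 1 fell after NSL1 siRNA, beside 18.8% and 22.4% of all genes, with a median of 0.21. Sp5, a Wnt target factor, and Lef1, a partner of beta-catenin, rose by 0.55 each (adjusted p = 1.2e-06 and 1.27e-06), and the receptor Fzd7 rose by 0.44. None of the 17 was called after MSL1 siRNA (limma), beside 0.214% of all genes. After MOF siRNA in PGK12.1, 3 rose and 1 fell, beside 9.84% and 14.6% of all genes. In the double knockdown 1 rose (3.51% of all genes), and in E14 1 rose (3.77%). In WD44 1 fell (8.28%), which was Lef1 at -0.54.

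**Figure D3:**
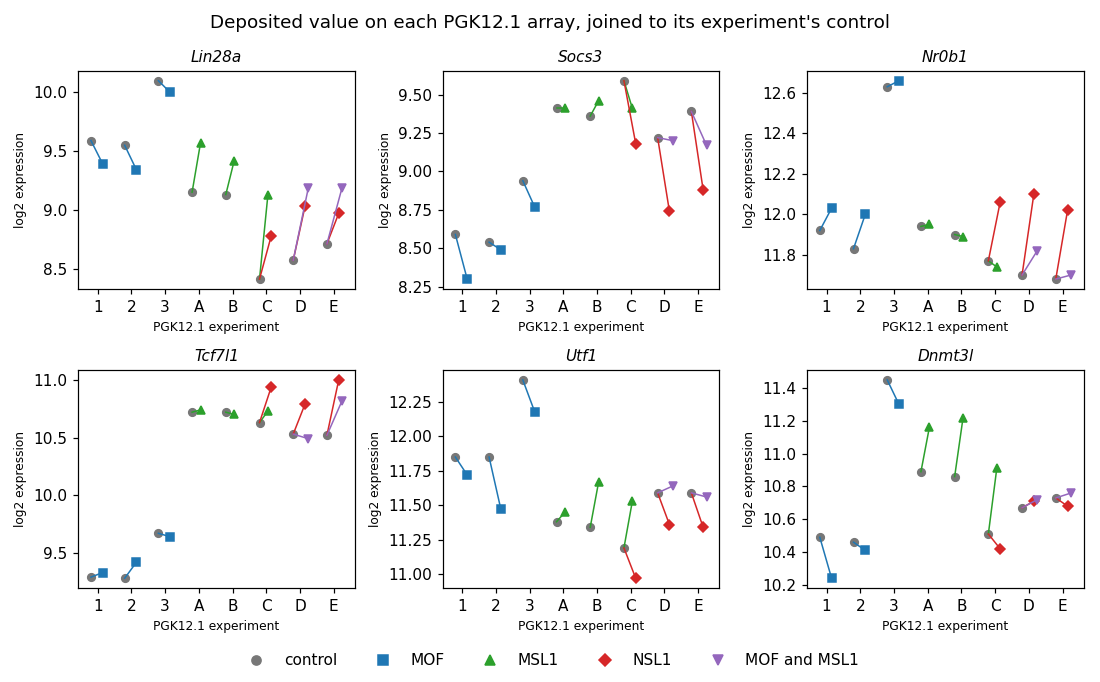
Deposited log2 expression (vertical axis) of 6 members on each of the 19 PGK12.1 arrays, by experiment (horizontal axis); lines join a knockdown to its own control. For Nr0b1, Tcf7l1 and Socs3 the 3 red NSL1 points all leave the control in 1 direction, by 0.27 to 0.52 in size; for Lin28a the MSL1, NSL1 and double knockdown arrays of A to E lie above their controls, while the MOF arrays of 1 to 3 lie below theirs.

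Among the 11 ES cell markers, Lin28a had the most calls, 4 of them, and not all in 1 direction. Its product, an RNA-binding protein, blocks maturation of let-7 microRNAs. After MSL1 siRNA it read 9.57, 9.42 and 9.13 beside 9.15, 9.13 and 8.41 on controls A, B and C. It was higher in 3 of 3 experiments, by 0.29 to 0.72, although the groups overlapped, since MSL1 array C stood just below control A. The rise was 0.49 (SE 0.07, adjusted p = 0.00732), and it was not called without MSL1 array C, when it stood at 0.35.

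In the double knockdown Lin28a stood at 9.19 on both arrays beside 8.57 and 8.71 on controls D and E, and rose by 0.53 (SE 0.08, adjusted p = 0.00241). It was not called without double-knockdown array D. After NSL1 siRNA it read 8.78, 9.03 and 8.97 beside 8.41, 8.57 and 8.71, with no overlap (0.32, adjusted p = 0.00132). The NSL1 comparison shares control C with MSL1 and controls D and E with the double knockdown, and Lin28a was lower on these 3 controls than on A and B.

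After MOF siRNA alone, Lin28a was lower or was not called. In WD44 it fell from 11.64 and 11.63 to 11.32 and 11.30, by 0.33 (SE 0.08, adjusted p = 0.0243), a call lost without either MOF array and with cyclic loess. In PGK12.1 it went from 9.59 and 9.55 to 9.39 and 9.34 in experiments 1 and 2 and was lower by 0.10 in experiment 3, whose control read 10.10 (-0.17, adjusted p = 0.0885). In E14 it went from 10.16 and 10.29 to 10.18 and 10.17 (-0.05, adjusted p = 0.791). The PGK12.1 controls of this gene ranged from 8.41 to 10.10 as deposited (SD 0.58, n = 8), and after quantile normalization its SD of 0.89 was the largest of the members.

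Utf1, a chromatin-bound ES cell factor, and Tdgf1 (Cripto), a co-receptor for NODAL, were each lower in 2 comparisons that share no arrays. Utf1 went from 11.85, 11.85 and 12.41 to 11.72, 11.47 and 12.18 after MOF siRNA in PGK12.1 (-0.25, SE 0.06, adjusted p = 0.00672), and the call was lost without MOF array 2. After NSL1 siRNA it went from 11.19, 11.59 and 11.59 to 10.97, 11.36 and 11.34, by the same -0.25 (adjusted p = 0.00233). On the MSL1 arrays it was instead higher, 11.45, 11.67 and 11.53 beside 11.38, 11.34 and 11.19 on the controls (0.25, adjusted p = 0.0978), which was not called. The NSL1 and MSL1 values differed by -0.50 (95% interval -0.65 to -0.35, adjusted p = 9.4e-05), and NSL1 and the double knockdown by -0.26 (adjusted p = 0.012), the latter lost without NSL1 array D or either double-knockdown array.

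Tdgf1 went from 12.60, 12.62 and 13.04 to 12.42, 12.43 and 12.89 after MOF siRNA in PGK12.1, lower by 0.15 to 0.19 in 3 of 3 experiments (fitted -0.17, adjusted p = 0.0298). That call was lost without any 1 of the MOF arrays. After NSL1 siRNA it went from 12.44, 12.56 and 12.48 to 12.33, 12.34 and 12.25, where the groups did not overlap (-0.19, adjusted p = 0.00754), and the call was lost without NSL1 array E or control D. In WD44 it read 13.35 and 13.30 on the controls and 13.19 and 13.26 with MOF siRNA, and in E14 it was lower by 0.10 in one experiment (12.07 to 11.97) and higher by 0.06 in the other, whose control read 12.04. After MSL1 siRNA Tdgf1 stood at -0.10 (adjusted p = 0.59).

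The Dppa genes, developmental pluripotency-associated transcripts, did not move together. Dppa4 rose by 0.22 after MOF siRNA in PGK12.1 (adjusted p = 0.00927), from 9.82, 9.94 and 10.69 to 10.03, 10.19 and 10.89, and fell by 0.25 after NSL1 siRNA (adjusted p = 0.00125), from 9.30, 9.58 and 9.56 to 8.89, 9.42 and 9.37. These values come from 1 of 2 Dppa4 probesets of nearly equal brightness (means 9.81 and 9.80), and the other gave 0.08 (adjusted p = 0.452) and -0.30 (adjusted p = 0.0016), so the rise was called on 1 of 2 probesets and the fall on both. The rise was lost without MOF array 2. The annotation of the first probeset is in doubt: the 17 named probesets nearest to it in identifier order are all on chromosome 2, while Dppa4 is on chromosome 16 and 13 of 14 such neighbours of the other probeset lie there. The probeset read for Dppa2 (11 of 11 neighbours on chromosome 19) and the second of Dppa3 (12 of 12 on X) are in the same position, and what these probesets read was not tested.

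Dppa3 (Stella), a maternal factor, rose in the double knockdown from 8.41 and 8.26 to 8.68 and 8.64 (0.40, SE 0.11, adjusted p = 0.0386). The fitted value lies above both experiments' own differences of 0.27 and 0.38, because the fit also uses the NSL1 arrays of the same experiments. The call was lost under 7 of 14 alternatives, among them without either double-knockdown array or control E, and its second probeset gave 0.22 (adjusted p = 0.139). Dppa2 and Dppa5a lay between -0.10 and 0.08 in all 6 comparisons. The NSL1 value of Dppa3 was lower than that of the double knockdown by 0.48 (adjusted p = 0.00424), lost without NSL1 or double-knockdown array D, and that of Dppa4 by 0.23 (adjusted p = 0.0171), lost without either double-knockdown array.

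Tcl1, a co-activator of AKT, rose after MOF siRNA in E14 from 9.69 and 9.88 to 9.96 and 10.17 (0.28, SE 0.07, adjusted p = 0.0231), a call lost without either MOF array. It was higher in all 7 MOF experiments, by 0.07 to 0.29, but was not called in PGK12.1 (0.15, adjusted p = 0.0657) or WD44 (0.14, adjusted p = 0.187). Fbxo15, an F-box gene under OCT4 and SOX2, rose in WD44 from 10.82 and 10.75 to 10.91 and 11.08 (0.21, adjusted p = 0.0466). Most of that came from experiment 2, and the call was lost without either MOF array and with median centring. The growth factors Fgf4 and Gdf3 lay between -0.09 and 0.12 over the 6 comparisons.

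The 4 chromatin genes held 5 calls. These were 1 after MSL1 siRNA (0.214% of all genes called), 1 after NSL1 (41.2%), 1 in WD44 (12.7%) and 2 in E14 (8.7%). Dnmt3l, a cofactor of de novo DNA methyltransferases, rose after MSL1 siRNA from 10.89, 10.86 and 10.51 to 11.16, 11.22 and 10.91 (0.36, 95% interval 0.25 to 0.47, adjusted p = 0.00736). All MSL1 arrays lay above all 3 controls, and the call was lost without MSL1 array B or C. After NSL1 siRNA it stood at -0.05, and the 2 values differed by -0.40 (adjusted p = 0.000243).

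Tet2, a 5-methylcytosine dioxygenase, moved in opposite directions in 2 comparisons. In E14 it fell from 11.39 and 11.25 to 11.08 and 11.06 after MOF siRNA (-0.25, SE 0.06, adjusted p = 0.0244), and after NSL1 siRNA it rose from 10.48, 10.48 and 10.38 to 10.57, 10.59 and 10.69 (0.16, adjusted p = 0.0157). The first was lost without either E14 MOF array, the second without NSL1 array E or control E and with median centring. The MOF response in PGK12.1 (0.08) exceeded that of E14 by 0.33 (adjusted p = 0.0449), and this was lost without any 1 of the 5 MOF arrays concerned. The part of the second transfection in PGK12.1 and of the depth of the Kat8 fall was not tested.

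Jarid2, a partner of the Polycomb complex PRC2, fell after MOF siRNA in both male lines. It went from 12.88 and 12.83 to 12.66 and 12.61 in WD44 (-0.22, adjusted p = 0.019) and from 12.49 and 12.36 to 12.25 and 12.20 in E14 (-0.20, adjusted p = 0.0337). In neither line did the groups overlap. In PGK12.1 it stood at -0.09 (adjusted p = 0.173), and the responses of PGK12.1 and WD44 differed by 0.13 (adjusted p = 0.326). Each male-line call was lost without either of its MOF arrays, and that in E14 also with median centring. Tet1 lay between -0.04 and 0.07 in all comparisons.

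**Figure D4:**
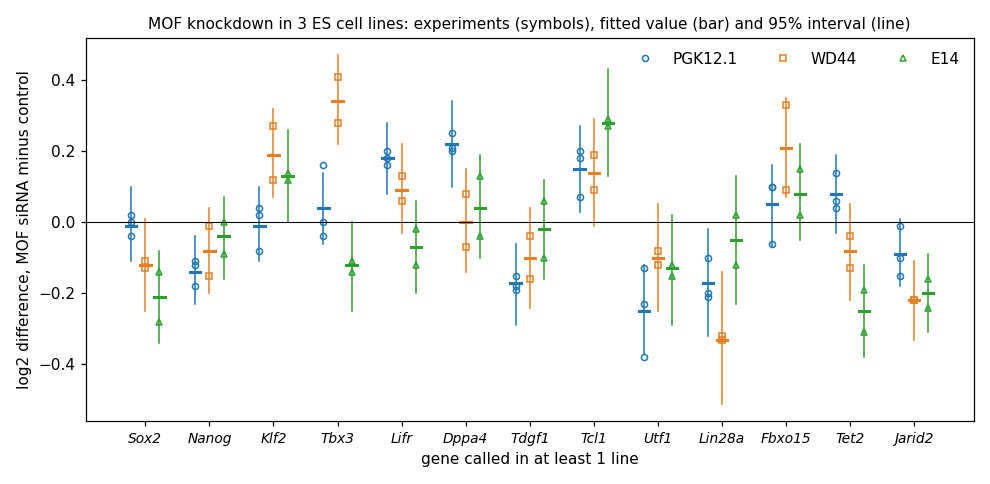
Log2 difference between MOF and control siRNA (vertical axis) for the 13 members called in at least 1 line. Symbols are single experiments (3 in PGK12.1, 2 in WD44, 2 in E14), short bars the limma value and vertical lines its 95% interval. Tbx3 stands at 0.34 in WD44 beside 0.04 and -0.12, Jarid2 lies below 0 in all 7 experiments and Tcl1 above 0 in all 7.

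Across lines, 5, 5 and 4 members were called after MOF siRNA in PGK12.1, WD44 and E14. In PGK12.1, 2 members rose and 3 fell; after median centring of the arrays 1 rose and 8 fell, with Esrrb, Klf5, Socs3, Lin28a and Dnmt3l added to the falls. In WD44, 3 rose and 2 fell, or 1 and 4 with median centring and 5 and 2 with quantile normalization. In E14, 1 rose and 3 fell, or 1 and 1 with median centring. Without the experiment as a block, 1 member was called in PGK12.1 (Tdgf1), and none was in WD44 or E14 (2 and 5 at an unadjusted limma p under 0.05). The share of all genes called was not taken under these other settings, so their counts have no background. Median centring shifts every gene of an array alike. The PGK12.1 MOF arrays had medians of 6.29, 6.30 and 6.50, above the 6.27, 6.22 and 6.47 of their controls. The members' log2 differences in PGK12.1 had a Pearson correlation of 0.37 with those in WD44 and 0.24 with those in E14, and WD44 and E14 of 0.21 (34 genes, no arrays in common). Over 13989 genes the same values were 0.51, 0.47 and 0.40. These are across genes, which are not independent replicates.

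In WD44, markers of other states moved with the MOF arrays. Of 9 measured fibroblast markers, taken as a list for the feeder cells, 6 rose and none fell, beside 4.45% of all genes that rose. Acta2 rose by 0.97 (adjusted p = 0.00171) and the collagen gene Col1a1 by 0.38. Their mean log2 level went from 8.75 to 8.78 on the controls to 9.06 to 9.10 on the MOF arrays, and the markers are dim: 8 of the 17 with a probeset were under the minimum. Of 15 primed epiblast genes 8 fell and none rose, with a median of -0.28, beside 8.28% of all genes that fell. Lefty2, an inhibitor of NODAL, fell by 0.75 (adjusted p = 8.81e-05). In a bulk sample, fewer cells of a type and less RNA per cell cannot be told apart, and the part of these genes in the WD44 values of Tbx3, Klf2, Fbxo15, Lin28a and Jarid2 was not tested. In E14 1 fibroblast marker rose, again Acta2 (0.55, adjusted p = 0.0321), and in the 4 PGK12.1 comparisons none rose and 0 to 2 fell. Lefty2 also fell after MOF siRNA in PGK12.1 (-0.43, adjusted p = 0.000114) and E14 (-0.34, adjusted p = 0.0101).

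Of 38 other pluripotency genes measured, 7 rose and 3 fell after MOF siRNA in PGK12.1, 1 rose after MSL1, 12 rose and 5 fell after NSL1, 5 rose in the double knockdown, 1 rose and 4 fell in WD44 and 4 rose in E14. Of all genes 24.5% were called after MOF siRNA in PGK12.1, 0.214% after MSL1, 41.2% after NSL1 (18.8% higher and 22.4% lower), 6.93% in the double knockdown, 12.7% in WD44 (4.45% higher and 8.28% lower) and 8.7% in E14 (3.77% higher and 4.93% lower), and the counts of this and the following lists are to be read against these shares. Sox15, a SOX2 relative, rose by 0.39 after MSL1 (adjusted p = 0.0273), 0.50 after NSL1, 0.64 in the double knockdown and 0.64 in E14. Myc fell by 0.38 after MOF siRNA in PGK12.1 (adjusted p = 0.00375). Of 15 FGF and ERK pathway genes 7 rose after NSL1 siRNA, among them the phosphatase gene Dusp4 (0.56), and of 13 BMP pathway genes 3 rose and 2 fell, with Id2, a BMP target, at 0.98 (adjusted p = 4.38e-08). Markers of primed epiblast in PGK12.1 gave 3 rises and 4 falls of 15 after MOF siRNA and 4 and 3 after NSL1. Of 14 trophectoderm markers, 3 rose (Eomes 0.52) and 1 fell (Krt18 -0.25) after NSL1 siRNA, and 4 rose and 1 fell in WD44. Of 14 primitive endoderm markers, 3 rose after NSL1, 3 rose and 1 fell (Dab2 -0.33) in WD44, and 3 fell in E14. Of 10 mesoderm markers 2 rose and 1 fell (Mixl1 -0.39) after NSL1, and of 11 neuroectoderm markers 3 rose and 2 fell (Neurog1 -0.23 and Nes -0.31). Of 3 two-cell markers none rose in any comparison and 1 fell, after NSL1. These counts were not tested against those of all genes.

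Between targets in PGK12.1, 8 members differed between NSL1 and the double knockdown, beside 27.6% of all genes (23.5% of members), and 9 between NSL1 and MSL1, beside 33.9% (26.5% of members). Nr0b1, Tet2 and Tcf7l1 were higher and Socs3, Dppa4 and Utf1 lower after NSL1 siRNA in both. Lifr and Dppa3 were lower than in the double knockdown alone, and Il6st and Stat3 higher and Dnmt3l lower than after MSL1 alone. The Tet2 difference from the double knockdown (0.17, adjusted p = 0.0462) was lost under 9 of 18 alternatives. That of Lifr was lost without NSL1 or double-knockdown array D, and the Stat3 difference from MSL1 without MSL1 array B or C, NSL1 array D or control D. Lin28a did not differ past the threshold, by -0.21 from the double knockdown (95% interval -0.38 to -0.04, adjusted p = 0.0652) and by -0.17 from MSL1 (95% interval -0.35 to 0.01, adjusted p = 0.139). Without the block, NSL1 called 5 members in place of 10 (Nr0b1, Tet2, Tcf7l1, Socs3 and Tdgf1), the double knockdown 1 in place of 2 (Dppa3) and MSL1 none (4 at an unadjusted limma p under 0.05). The share of all genes called without the block was not taken.

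Members differed more between the control arrays of different lines than between any knockdown and its control. To set them side by side all 27 arrays were quantile-normalized to 1 distribution, and the values are given without a test, since line, strain, sex and set of arrays cannot be told apart. PGK12.1 and WD44 differed at least 2-fold in 11 of 34 members (32.4%), beside 11.5% of all genes. In 8 PGK12.1 was the higher line (5.45% of all genes) and in 3 the lower (6.08%). The arrays of these lines did not overlap for 48.9% of all genes. WD44 and E14 differed at least 2-fold in 9 members (26.5% beside 11.2%), and PGK12.1 and E14 in 2 (5.88% beside 6.43%). The arrays of WD44 and E14 did not overlap for 84.2% of all genes.

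Several genes of the naive state read lower in WD44, but not all. On the quantile scale, PGK12.1 minus WD44 was -0.21 for the naive factor Klf5 and -0.20 for Nr0b1. For Nr5a2 it was 0.39 and for Tfcp2l1 0.97, and for each of these genes the arrays of the lines overlapped. Zfp42 (REX1) read 8.57 and 8.58 in WD44 beside 10.44 to 11.56 in PGK12.1 (median 10.66) and 10.29 and 10.36 in E14. Prdm14, a repressor of the primed programme, read 7.19 and 7.25 beside 8.94 or more in PGK12.1 (median 9.73) and 9.21 and 9.34. Tbx3, which rose there after MOF siRNA, read 8.70 and 8.87 beside 10.73 to 11.10 and 11.07 and 11.12. These 3 were thus 2.37 to 2.17 lower in WD44 than in PGK12.1 on the log2 scale, with no array of WD44 inside the range of the other lines.

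Further members at least 2-fold lower in WD44 than in PGK12.1 were Tcl1 by 2.26, Fbxo15 by 1.60, Klf2 by 1.59, Klf4 by 1.33 and Nanog by 1.09. Nanog read 11.81 and 11.90 in WD44, 12.80 to 13.10 in PGK12.1 and 12.71 and 12.80 in E14. The 3 members at least 2-fold higher in WD44 were Lin28a (by 1.47), Utf1 (by 1.16) and Dnmt3l (by 1.04). Pou5f1 and Sox2 differed by 0.31 and 0.15 on the quantile scale, but by 0.89 and 0.72 with median centring, where the arrays of the 2 lines did not overlap for either gene. Quantile-normalized, Pou5f1 read 12.17 and 12.29 in WD44 beside 12.43 to 12.67 in PGK12.1. With median centring the 8 lower members and Lin28a kept a separation of all arrays, whereas Utf1 (0.60) and Dnmt3l (0.51) overlapped. The median over all genes moved from 0.09 to 0.24 and that over the members from 0.14 to 0.62. The share of all genes separated with median centring was not taken, so these separations have no background.

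The primed epiblast and fibroblast lists were also higher on the WD44 control arrays, which is not shown to be particular to them. As deposited, where WD44 arrays read highest as a whole, lists of other states were higher there too. Trophectoderm means read 9.33 to 9.41 on WD44 controls and 7.81 to 7.90 on PGK12.1 controls A to C. For neuroectoderm these were 9.07 to 9.12 and 7.23 to 7.24, and for mesoderm 8.15 to 8.19 and 6.95 to 7.08. Those lists were not put on the quantile scale. The mean of the 15 primed epiblast genes read 9.71 and 9.90 on the quantile scale, beside 8.86 to 9.43 in PGK12.1 and 8.60 and 8.62 in E14. The mean of the 9 fibroblast markers read 7.72 and 7.74, beside 6.90 to 7.51 and 6.76 and 6.84. The mean of the 34 pluripotency genes read 10.72 and 10.78, beside 11.06 to 11.17 in PGK12.1 and 10.98 on both E14 arrays. Their part in the members' levels was not tested.

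E14 stood closer to PGK12.1. Tet2 was 1.18 higher in E14 and Tcl1 1.28 higher in PGK12.1, and both kept their separation with median centring (1.20 and 1.24). On the quantile scale, the arrays of these lines did not overlap for 41.3% of all genes. Tfcp2l1 read 12.63 and 12.66 in E14, 10.78 and 10.87 in WD44 and 10.85 to 12.29 in PGK12.1. Within PGK12.1 the controls 1 to 3 and A to E lay apart for several members, and the SD over the 8 arrays was 0.89 for Lin28a, 0.78 for Dppa4, 0.66 for Dppa3 and 0.63 for Tfcp2l1, but 0.09 for Pou5f1 and 0.05 for Sall4. The median SD over the members was 0.22, beside 0.25 over all genes.

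**Figure D5:**
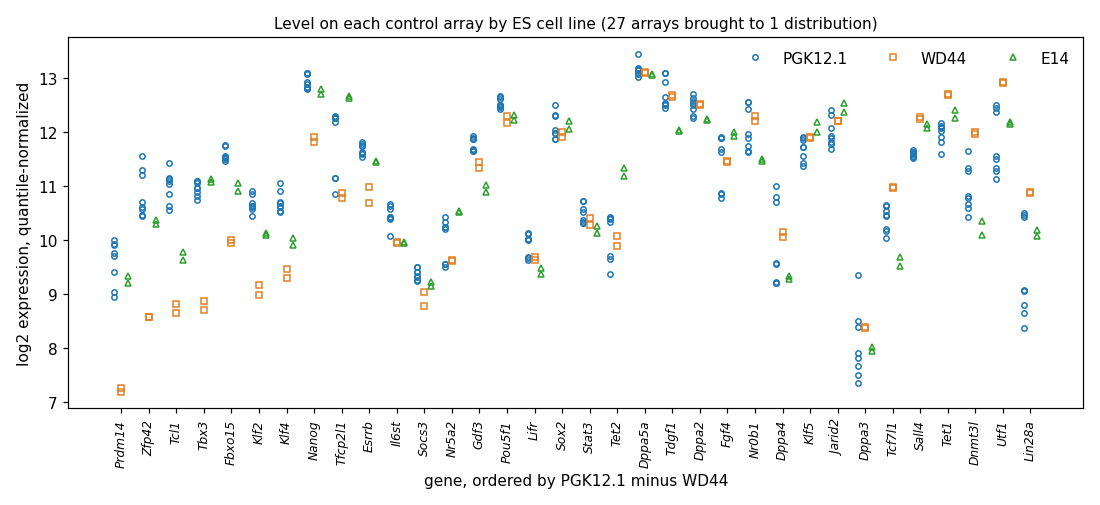
Log2 expression after quantile normalization of all 27 arrays (vertical axis) on each control array, for the 34 members ordered from the most PGK12.1-high to the most WD44-high (horizontal axis). Circles are the 8 PGK12.1 controls, squares the 2 of WD44 and triangles the 2 of E14; from Prdm14 to Nanog the squares lie below every circle, and at Utf1 and Lin28a above every circle.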

How the data were processed

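The values are log2 expression values deposited by the authors, 1 per probeset (35556) and array (27), made with Affymetrix Expression Console and RMA per the submitters' processing notes. Neither version, nor a genome build, is given in the sources used here. Probesets were named through the platform annotation, updated through RefSeq (21698 of 21789 with 1 symbol matched; 1621 had several symbols and 12146 none). Those with a mean log2 of at least 6 and a symbol were tested (16283), and 1 probeset per gene, the brightest, was kept (13989 genes).

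In 1 fit of all arrays (R 4.3.3, limma 3.58.1), each knockdown had a coefficient and each experiment its own level as a block, with 9 degrees of freedom left. P-values were adjusted by Benjamini-Hochberg over the tested probesets and called under 0.05. The labels tie each knockdown to the control of its number or letter. Deviations of a knockdown and its control from their group means correlated between -0.0967 and 0.867 over 15 pairs, and 11 exceeded 0.1. In WD44 and E14, with 2 arrays per group, both pairs of a line must give the same value (0.0113 and 0.129). Steps in scale between sets of arrays can also raise these values, so they cannot check the pairing within a set. The block also takes up steps in scale between sets of arrays. A fit that shares 1 spread leans on PGK12.1 for the lines with 2 experiments. The number of arrays limits precision. No 2 arrays were identical, and replicates correlated at 0.981 to 0.999.

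The 34 members and the 12 lists of other genes were chosen with earlier results of these data known. Any member could be named. Values by array were given for members called and for Pou5f1, Sox2, Nanog, Esrrb, Klf4 and Tdgf1, though not for each uncalled comparison, and up to 4 genes with the smallest p from another list. Alternatives covered the block, scaling, filter, weights, moderation, probeset choice, the arrays fitted and each array left out; fits by number of RNAi rounds were added after the data were seen. The procedure was tested on simulated data.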

Additional observations from a re-analysis of the deposited data

Results flagged for a closer look

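In the 5 PGK12.1 controls A to E, 2 of 34 members had an array far from the others, both times control C, and chance flags about 1 in 20. Gdf3 read 11.90 on control C beside 11.68 to 11.73, and Tcl1 11.49 beside 11.11 to 11.20. Neither gene was called in a comparison that uses control C.

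The MOF response differed between lines for 2 members by a test of the difference. For Tbx3 it was -0.30 for PGK12.1 minus WD44 (SE 0.08, limma adjusted p = 0.0497) and 0.47 for WD44 minus E14 (SE 0.08, limma adjusted p = 0.016). For Tet2 it was 0.33 for PGK12.1 minus E14 (SE 0.08, limma adjusted p = 0.0449).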

How the results depend on the processing

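The 48 calls of members (28 against controls and 20 differences between responses) were refitted 758 times in all: 589 kept direction and call, 169 kept direction only and none reversed. The number of members called, in the order MOF in PGK12.1 (5), MSL1 (2), NSL1 (10), double knockdown (2), WD44 (5) and E14 (4), moved by over 1.5 times as follows. With no replicate block the counts were 1, 0, 5, 1, 0 and 0. Fitting only the arrays of a comparison, which leaves few degrees of freedom, gave 0 for MOF in PGK12.1, MSL1, WD44 and E14 (limma; 10, 6, 5 and 5 at an unadjusted p under 0.05). Median centring gave 9 for MOF in PGK12.1 and 2 for E14. The share of all genes called was not taken for this or the other settings. Quantile normalization gave 1 for the double knockdown, as did the mean of a gene's probesets. Without the filter the counts were 1 (double knockdown), 3 (WD44) and 2 (E14). Array weights gave 3 for MOF in PGK12.1 and 3 for WD44, and trend with robust moderation 8 for MOF in PGK12.1. Added after the data were seen, the 2 MOF experiments with 2 RNAi rounds gave 3 and the one with 1 round gave 1. Leaving out 1 array gave 1 to 3 for MOF in PGK12.1, 0 to 2 for MSL1, 7 to 10 for NSL1, 0 to 2 for the double knockdown, 0 to 2 for WD44 and 0 for E14 (3 and 8 at an unadjusted p under 0.05).

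Differences between responses moved likewise. PGK12.1 minus WD44 (1 member) gave 0 without the block (no replicate block), with median centring, without the filter, with array weights and with only its arrays, 2 with quantile normalization, and 0 to 1 with an array left out. PGK12.1 minus E14 (1) gave 0 without the block, with median centring, without the filter and with only its arrays, 2 with quantile normalization, the stricter filter or trend with robust moderation, and 0 with any array left out. WD44 minus E14 (1) gave 0 without the block and with only its arrays, and 0 to 1 with an array left out. NSL1 minus the double knockdown (8) gave 3 without the block, 4 with only its arrays and 1 to 9 with an array left out. These counts are limma's, and those of 0 had 2 to 8 members at an unadjusted p under 0.05. Medians over the members moved to -0.04 (MOF in PGK12.1), -0.06 (WD44), -0.03 (E14) and -0.04 (NSL1) with median centring; to 0.01 (WD44), -0.04 (E14) and 0.01 (MSL1) with quantile normalization; to 0.03 (WD44) and -0.05 (E14) with cyclic loess; to -0.02 (WD44) with the mean of a gene's probesets; to 0.01 (MSL1) without the block; to -0.04 with 1 RNAi round; and to -0.02 (E14) and -0.01 (WD44) with an array left out. Between control arrays the members' median went from 0.14 to 0.62 (PGK12.1 minus WD44) and from -0.11 to -0.52 (WD44 minus E14) with median centring.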
